A study of Mus musculus with 9 samples.

Results

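The desmosome and Perp adhesion genes are 10 protein-coding genes, picked by symbol (Perp, Dsp, Jup, Dsg2, Dsc2, Dsc3, Pkp1, Pkp2, Pkp3 and Pkp4) out of 48397 symbols counted in mouse cardiac outflow tracts. All 10 were in the count tables, and all 10 passed the filter on low counts that left 16522 genes for testing. They were chosen with earlier results of the same libraries known, so their differences between genotypes are given as a description. The outflow tracts, the arterial pole of the embryonic heart, came from C57BL/6J embryos at embryonic day 12.5. Total RNA of 4 wild-type samples (Nkx2-5+/+) and 5 samples homozygous for a deletion of the Nkx2-5 anterior second heart field enhancer (Nkx2-5delta-enh/delta-enh) was sequenced as 1 library per sample. The labels name no Cre or transgene, and do not say whether a sample is 1 embryo or a pool. P-values therefore measure the spread between these samples only, which may be technical.

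A desmosome is a spot weld between neighbouring cells. Its cadherins, the desmogleins and desmocollins, bridge the gap between the membranes. The armadillo proteins plakoglobin and the plakophilins bind the cadherin tails, and desmoplakin ties that plaque to intermediate filaments, which are desmin in heart muscle and keratins in epithelia. In the heart, desmosomes sit in the intercalated disc, and variants of Dsp, Jup, Dsg2, Dsc2 and Pkp2 underlie arrhythmogenic cardiomyopathy. Perp is a tetraspan membrane protein, a target of p53 and p63 that takes part in desmosome assembly in stratified epithelia. The 5 genes Dsp, Dsg2, Dsc2, Pkp2 and Jup are called the cardiac members here. The other 5, Perp, Dsc3, Pkp1, Pkp3 and Pkp4, are called the epithelial members, although Pkp4 is found in many cell types.

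The 9 libraries held between 27707435 and 49094225 counts in genes. A number in the name of each deposited count table was read as the litter, which is an assumption. By this number the first litter held replicates 1 and 2 of both genotypes, and the second litter replicates 3 and 4 of both. The number of deletion 5 was not shared by another library, and deletion 5 was counted with the second litter unless stated. Nkx2-5 itself, the gene whose enhancer was deleted, stood at 18.8, 41.9, 45.0 and 39.5 CPM in wild types 1 to 4 and at 16.5, 24.4, 17.8, 11.4 and 17.4 CPM in deletions 1 to 5. CPM are counts scaled to a common library total after a correction for composition (TMM). Wild type 1 lay within the range of the deletion libraries. Heart muscle was abundant in every library, with Tnnt2 between 1042 and 2269 CPM. Of the smooth muscle markers, Acta2 was between 1012 and 1899 CPM and Tagln between 267 and 623 CPM, whereas Myh11, a marker of mature smooth muscle, was between 2.97 and 34.5 CPM. Deletion 2 stood apart in 16 neuron and Schwann cell markers, which summed to 3431 CPM there and to 115 to 190 CPM in the other 8 libraries. The part of that difference in the results was not tested. Values without deletion 2 are given for the genotype difference of Perp and the litter differences of Perp and Dsg2. They are also given for the relations of Jup, Pkp2, Dsc3 and Dsc2 to sarcomere genes, and not beside the other results. Wild type 1 had the lowest and wild type 2 the highest mean level of 24 sarcomere genes, at 8.16 and 9.28 on the log2 CPM scale.

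Perp and the cardiac members were abundant in the tract, and the desmocollin and plakophilins of stratified epithelia were low. In these bulk samples, fewer cells of a type and less RNA per cell cannot be told apart. Scaled by exon length to a common total (TPM), Perp was the highest at 161 ± 58.9 (SD, n = 9), followed by Jup, which encodes plakoglobin, at 111 ± 16.7 (SD, n = 9). Perp exceeded Jup in 7 of 9 libraries and their ranges overlapped, so their order was not separated by the spread between libraries. Pkp2 (plakophilin 2, the main heart plakophilin) followed at 47.5 ± 8.97 TPM, Dsc2 (desmocollin 2) at 40.8 ± 4.68, Dsp (desmoplakin) at 38.9 ± 8.96 and Dsg2 (desmoglein 2) at 30.8 ± 6.83 (SD, n = 9 each). Jup lay above Pkp2 in 9 of 9 libraries without overlap. The ranges of neighbours from Pkp2 down to Dsg2 overlapped, and Dsc2 exceeded Dsp in only 5 of 9 libraries. At the low end, Dsg2 was above Pkp4 in 9 of 9 libraries, Pkp4 above Dsc3 in 9 of 9 and Dsc3 above Pkp1 in 9 of 9, each without overlap. Pkp4 stood at 15.9 ± 1.45 TPM, and Dsc3 (desmocollin 3, a stratified epithelium isoform) at 5.40 ± 2.30 (SD, n = 9 each). Pkp1 and Pkp3, plakophilins of epithelia, were close to the limit of detection at 0.341 ± 0.193 and 0.302 ± 0.126 TPM (SD, n = 9 each), from 2 to 33 and 3 to 23 counts per library.

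**Figure D1:**
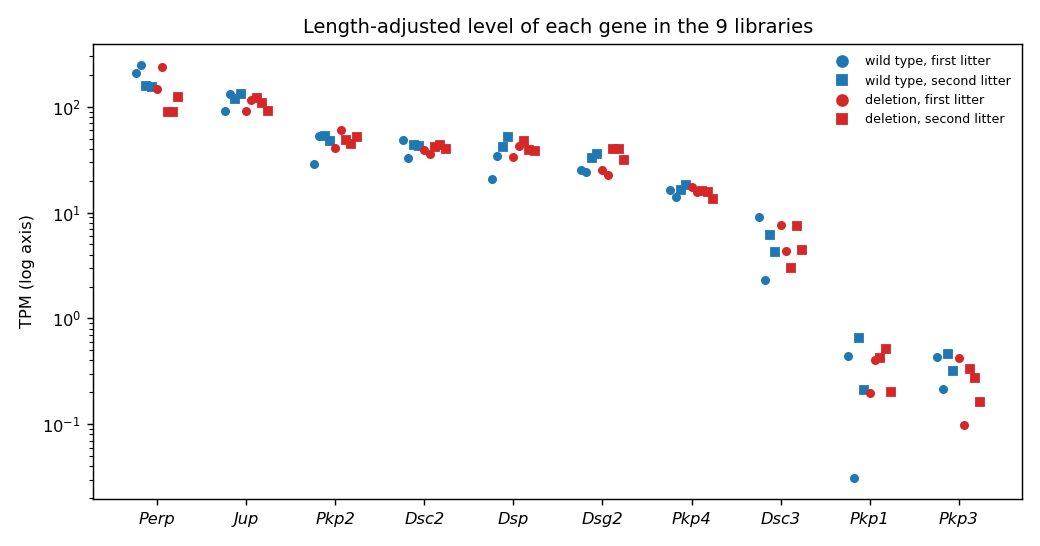
Level per exon length (TPM, log axis) of the 10 genes in each of the 9 libraries, ordered by mean. Points are libraries, coloured by genotype and shaped by litter. The cardiac members and Perp lie between Dsg2 at 30.8 and Perp at 161 TPM on average, while Pkp1 and Pkp3 lie below 1.

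Desmosomal cadherins of stratified epithelia outside the 10 genes were almost absent. Dsg4 and Dsc1 had 0 counts in all 9 libraries. Dsg1a and Dsg1b did not exceed 0.0834 CPM, and Dsg3, a desmoglein of the epidermis, was at 0.584 CPM (21 counts) in wild type 1 and at most 0.169 CPM in the other libraries. Dsg1c likewise reached 2.00 CPM in wild type 1 and no more than 0.605 CPM elsewhere. Wild type 1 thus held the highest value of these epidermal cadherins where they were seen at all, except Dsg1a. It also had the highest Dsc3, Krt5, Krt14 and Trp63. It was not highest in the sum of 13 surface ectoderm and stratified epithelium markers. That sum was 63.3 CPM in wild type 1 and ran from 51.9 CPM in deletion 5 to 88.0 CPM in deletion 4. Several markers that define foregut or stratified epithelium were low in all libraries, with Krt5 at most 0.806 CPM and at 0 in 5 libraries, Trp63 at most 0.472 CPM, Foxa2 at 0 in 7 libraries, Nkx2-1 at 0 in 8 and Epcam at most 3.64 CPM. Cdh1 had a median of 1.00 CPM and its highest value, 8.72 CPM, in deletion 2. Other genes of the epithelial lists were higher, among them the keratins Krt18 (24.8 to 53.3 CPM) and Krt8 (11.3 to 33.0 CPM) and the transcription factor gene Grhl3 (15.7 to 40.4 CPM). Epicardial markers, by contrast, were found throughout, with Upk3b, a mesothelial marker, between 137 and 475 CPM and Wt1 between 22.0 and 53.6 CPM.

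Promoter sequences are shown for Jup and Dsp, the plaque genes whose proteins join the cadherin tails to the filaments. They are RefSeq's on GRCm38.p6, from 250 bases before to 50 bases after the start of the gene, and were found for 3 of the 10 genes. Capitals mark GC boxes (GGGCGG, or CCGCCC on the other strand) and CCAAT boxes (CCAAT, or ATTGG on the other strand), written 5′ to 3′ on the gene's own strand.
Jup, chr11:100397741-100398040, minus strand: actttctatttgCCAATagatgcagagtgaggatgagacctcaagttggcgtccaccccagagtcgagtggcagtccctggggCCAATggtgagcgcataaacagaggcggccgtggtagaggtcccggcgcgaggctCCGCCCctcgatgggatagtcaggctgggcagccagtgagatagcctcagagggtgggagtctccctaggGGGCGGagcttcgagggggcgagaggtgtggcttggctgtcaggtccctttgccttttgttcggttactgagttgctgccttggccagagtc
Dsp, chr13:38151044-38151343, plus strand: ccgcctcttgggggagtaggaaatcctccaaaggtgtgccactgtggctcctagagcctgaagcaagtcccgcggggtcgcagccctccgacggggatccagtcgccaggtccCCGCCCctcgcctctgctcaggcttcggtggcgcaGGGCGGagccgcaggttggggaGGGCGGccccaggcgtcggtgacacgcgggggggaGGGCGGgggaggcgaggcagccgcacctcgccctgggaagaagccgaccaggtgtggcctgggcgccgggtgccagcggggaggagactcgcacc
The Dsp promoter was 73% G and C and held 4 GC boxes and no CCAAT box. The Jup promoter was 60.7% G and C, with 2 GC boxes and 2 CCAAT boxes, against a mean of 53.8% G and C over all 32851 promoters in the table. A GC box occurred in 35.7% and a CCAAT box in 37.4% of those promoters. A GATA core (AGATA or TATCT) was found once, in Jup, and occurred in 29.6% of all. Neither promoter held the core letters of an Nkx2-5 site (AAGTG or CACTT, in 46.4% of all), of a TEAD site (GGAATG or CATTCC, in 14.7%) or a TATA box (TATAAA or TTTATA, in 13.6%). The capital letters do not overlap one another, and a match is a description of letters and not of binding.

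Positions are on mm10 in the GENCODE M21 annotation, and every gene is protein coding. Perp occupies chr10:18845020-18857073 on the plus strand, Dsp chr13:38151294-38198577 (plus), Jup chr11:100368958-100397763 (minus) and Pkp2 chr16:16213318-16272712 (plus). The cadherin genes lie together on chromosome 18, with Dsc3 at chr18:19960930-20002351 (minus), Dsc2 at chr18:20030633-20059554 (minus) and Dsg2 at chr18:20558074-20604521 (plus). Pkp1 is at chr1:135871395-135919207 (minus), Pkp3 at chr7:141078218-141090510 (plus) and Pkp4 at chr2:59160850-59355208 (plus). Dsp and Dsg2 overlap annotated genes on the opposite strand, Gm10129 with 0 to 14 counts and Gm16090 with 0 to 6 counts per library. The counting's strand setting is not given in the sources used here, so reads of these partners cannot be told apart from theirs.

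Between genotypes, the cardiac members lay between -0.18 and 0.11 on the log2 scale, and Perp had the lowest ratio of deletion to wild type, -0.51. Perp was at 121, 156, 89.4 and 89.7 CPM in wild types 1 to 4 and at 87.7, 135, 52.8, 49.7 and 76.0 CPM in deletions 1 to 5. The deletion libraries were lower on average, 80.3 ± 34.5 (SD, n = 5) against 114 ± 31.7 CPM (SD, n = 4), but deletion 2 exceeded 3 of the 4 wild types. Within the 4 pairs that share a replicate number Perp was lower in the deletion in 4 of 4, as were Dsc2 and Pkp3, while the other 7 genes were lower in 1 or 2 of 4. Pairing by number is an assumption, and the share of all genes lower in 4 of 4 was not computed, so nothing is concluded from these counts. The log2 fold change of Perp had an SE of 0.29 and an edgeR adjusted p of 0.900 over all genes. Among the cardiac members 3 were above and 2 below 0.

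Desmoplakin, the plaque's link to desmin, gave 60.3, 106, 118 and 149 CPM for Dsp in wild types 1 to 4. Its deletion libraries were at 99.1, 119, 139, 110 and 117 CPM. They lay inside the wild-type range, and wild type 1 was the lowest of all 9 libraries. The log2 fold change of Dsp was 0.11 (SE 0.21), and -0.09 (SE 0.14) without wild type 1. Pkp2 resembled Dsp, at 46.6, 91.0, 82.9 and 75.4 CPM in wild type and 66.0, 94.4, 78.1, 68.4 and 87.9 CPM in the deletion. Again wild type 1 was lowest, and the log2 fold change of 0.09 (SE 0.19) became -0.07 (SE 0.14) without it.

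Plakoglobin is shared by desmosomes and adherens junctions. Jup was at 177, 272, 224 and 252 CPM in wild types 1 to 4 and at 179, 220, 233, 201 and 185 CPM in deletions 1 to 5. The lowest and the 2 highest values were wild type, so the groups overlapped fully, with a log2 fold change of -0.18 (SE 0.13). Among the cadherins, Dsg2 was at 62.7, 64.5, 79.9 and 87.8 CPM in wild type and 62.7, 54.4, 99.5, 95.7 and 81.6 CPM in the deletion, which gave 0.10 (SE 0.19) on the log2 scale. Dsc2 varied least among the cardiac members, at 77.0, 55.2, 67.2 and 67.2 CPM in wild type and 63.2, 54.9, 65.8, 66.3 and 66.2 CPM in the deletion, which gave -0.08 (SE 0.11) on the log2 scale. Its coefficient of variation over the 9 libraries was 10.3%, against 37.7% for Perp and 41.7% for Dsc3.

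Dsc3 was at 14.8, 4.00, 9.76 and 6.75 CPM in wild types 1 to 4 and at 12.5, 6.76, 4.90, 11.7 and 7.59 CPM in deletions 1 to 5. Its values spanned 3.69-fold and overlapped fully, with group means of 8.81 ± 4.61 (SD, n = 4) and 8.69 ± 3.27 CPM (SD, n = 5). Per exon length, Dsc3 made up between 6.60% (wild type 2) and 16.1% (deletion 1) of desmocollin 2 and 3 transcripts. Pkp4, a plakophilin relative found at adherens junctions as well, varied least of all members, between 24.1 and 30.7 CPM, with a log2 fold change of -0.07 (SE 0.10). Pkp1 at 0.06 (SE 0.68) and Pkp3 at -0.45 (SE 0.51) rest on so few counts that their log2 fold changes are loosely bounded.

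**Figure D2:**
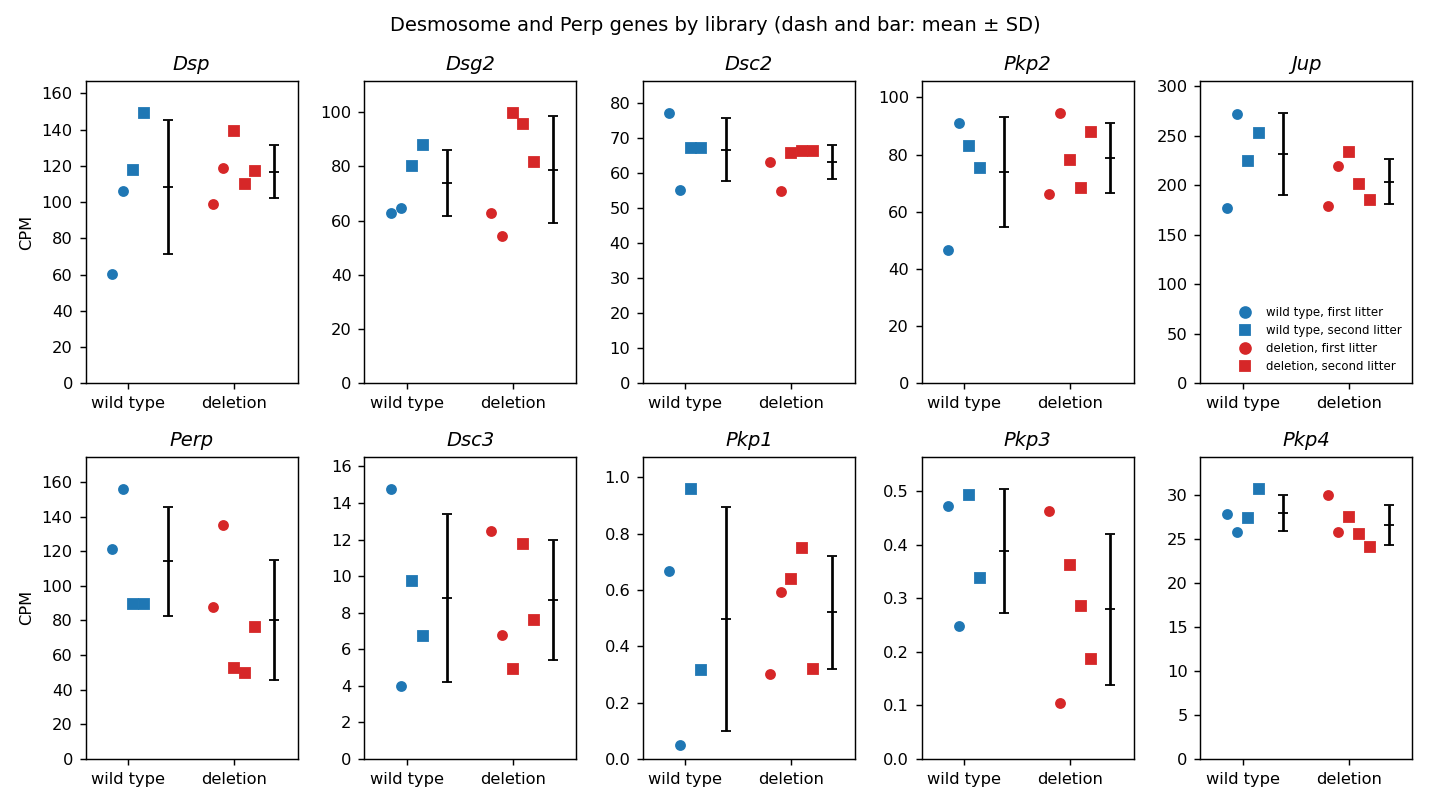
CPM of each gene in every library, wild type at left and deletion at right. Circles are the first and squares the second litter, and the dash and bar give mean ± SD (n = 4 and n = 5). The groups overlap for every gene, and for Perp and Dsg2 the litters lie apart more than the genotypes do.

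None of the 10 genes was called in the deletion against wild type comparison by edgeR (0 of 10, adjusted p under 0.05), where 0% of all genes were called. At an unadjusted p under 0.05 the count was 0 of 10, against 870 of all genes (5.27%). DESeq2 called 0 of 10, against 0.225% of its genes. No member had groups that did not overlap, against 1.8% of all genes. The median log2 fold change was 0.09 over the cardiac members, 2 of which were below 0. Over the epithelial members it was -0.07, with 4 of 5 below 0. Over all genes it was 0.0029, with 8169 of 16522 below 0. The sum of the cardiac members was between 423 and 632 CPM in wild type and between 470 and 616 CPM in the deletion. The epithelial members, most of whose counts are Perp, summed to 128 to 186 CPM in wild type and 86.2 to 168 CPM in the deletion.

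The Perp ranges of the genotypes did not overlap within the second litter and overlapped within the first. A difference between the litters in this respect was not called in the interaction test given below. In the second litter Perp stood at 89.4 and 89.7 CPM in wild type and at 49.7 to 76.0 CPM in the deletion, without overlap. Perp and Dsc2 were the 2 of 10 members without overlap there, a share close to the 23.2% of all genes, and for Dsc2 the gap was from 66.3 to 67.2 CPM. In the first litter Dsg2 was the 1 member without overlap, against 37.2% of all genes, although wild type 1 and deletion 1 were both at 62.7 CPM. Perp overlapped there. The log2 fold change of Perp was -0.30 (SE 0.25) in the first litter alone, -0.59 (SE 0.18) in the second and -0.81 (SE 0.09) in the second without deletion 5. With deletion 5 left out Perp had an edgeR adjusted p of 0.0451 and was the 1 member called, in a fit that called 0.0369% of all genes. With deletion 5 included the edgeR adjusted p was 0.683.

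With the replicate number as a block, the log2 fold change of Perp was -0.57 in both tools. The edgeR adjusted p with this pairing was 0.860 (SE 0.12), and the DESeq2 adjusted p was 0.0223, which made Perp the 1 member called where 0.43% of all genes were called. DESeq2 with litter as a factor gave Perp an adjusted p of 0.282. Leaving out deletion 2, the deletion library with the highest Perp, moved its log2 fold change from -0.51 to -0.77 (edgeR adjusted p 0.868, DESeq2 0.150). Perp was below 0 in all 32 genotype fits made, between -0.81 and -0.30, as were Jup, between -0.29 and -0.10, and Pkp3. The other 7 genes took both signs over these fits. Dsp ran from 0.41 (SE 0.29) in the first litter alone to -0.13 (SE 0.14) in the second.

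The genotype by litter interaction asks whether the deletion's difference itself differed between litters. EdgeR called 0 of 10 members, against 0.0605% of all genes, and DESeq2 called 0 of 10, against 0.866%. No member had an unadjusted edgeR p under 0.05 in this term. The largest interaction among the cardiac members was that of Dsp, -0.52 (SE 0.33, edgeR adjusted p 0.817). Perp gave -0.27 (SE 0.33, edgeR adjusted p 0.935), and -0.51 (SE 0.29) without deletion 5, with an edgeR adjusted p of 0.716.

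The litters, a comparison that adjusts for genotype, separated Perp and Dsg2 in opposite directions. Each side is 1 assumed litter, so its p-values measure the spread between libraries and not between litters. Anything else that the libraries of a litter share, such as handling or exact age, cannot be told apart from it. EdgeR called 2 of 10 members for the second litter against the first, where 9.84% of all genes were called, and DESeq2 called 2 of 10, a share close to its 18% of all genes. Perp fell from 125 ± 28.6 (SD, n = 4) to 71.5 ± 19.3 CPM (SD, n = 5), or -0.78 on the log2 scale (SE 0.16, edgeR adjusted p 0.0186). The ranges overlapped narrowly, since deletion 1 of the first litter was at 87.7 CPM and wild type 4 of the second at 89.7 CPM. Dsg2 rose from 61.1 ± 4.55 (SD, n = 4) to 88.9 ± 8.56 CPM (SD, n = 5), or 0.54 on the log2 scale (SE 0.10, edgeR adjusted p 0.0107). It was higher in every library of the second litter than in any of the first, the 1 member without overlap, against 13.2% of all genes.

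**Figure D3:**
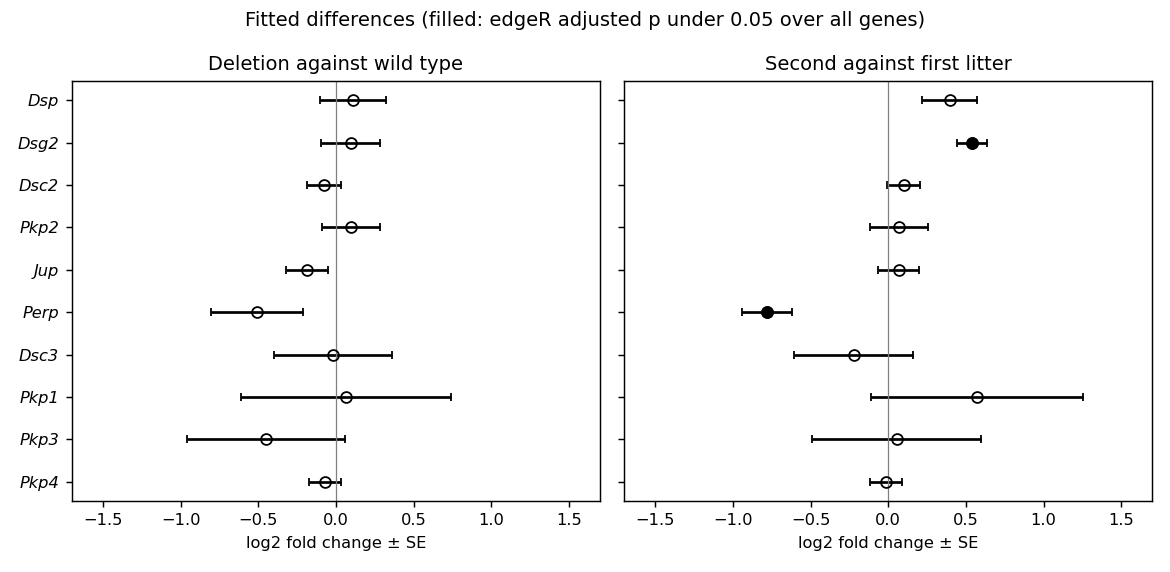
Fitted log2 fold change of each gene (x axes, bars ± 1 SE) for deletion against wild type at left and the second litter against the first at right; filled points have an edgeR adjusted p under 0.05 over all genes. No point is filled at left, and at right Perp at -0.78 and Dsg2 at 0.54 are filled on opposite sides of 0.

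The call on Dsg2 held in all 9 fits that left out 1 library, with edgeR adjusted p between 0.0120 and 0.0411. Without deletion 2 the litter difference was -0.60 for Perp (edgeR adjusted p 0.0331) and 0.47 for Dsg2 (edgeR adjusted p 0.0220). The call on Perp was lost without wild type 3 (edgeR adjusted p 0.0566), wild type 4 (0.0515) or deletion 3 (0.0512). In each genotype alone the direction was the same and neither gene was called. The log2 change in wild type alone was -0.64 (SE 0.15) for Perp and 0.39 (SE 0.12) for Dsg2, and in the deletion alone -0.92 (SE 0.24) and 0.64 (SE 0.14). Per exon length, the ratio of Perp to Dsg2 was 8.20, 10.2, 5.92 and 10.5 in the first-litter libraries and between 2.20 and 4.73 in the second, without overlap. Both levels follow the litters, in opposite directions, so the separation of this ratio adds no evidence to the 2 calls. For the same reason no correlation between Perp and Dsg2 over all libraries is given.

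The other 8 members were not called between litters. Dsp had a log2 change of 0.40 (SE 0.18, edgeR adjusted p 0.189), with 60.3 to 119 CPM in the first and 110 to 149 CPM in the second litter. For Jup, Dsc2, Pkp2 and Pkp4 the log2 change was between -0.01 and 0.10. Dsc3 was at -0.22 (SE 0.38), Pkp1 at 0.57 (SE 0.68) and Pkp3 at 0.05 (SE 0.54). The median over the members was 0.07, against -0.02 over all genes. Sox9, a transcription factor of cushion and cartilage cells and of the foregut, also followed the litters, at 39.0 to 154 CPM in the first and 215 to 277 CPM in the second. The sum of 17 other foregut and lung epithelium markers was between 47.0 and 83.1 CPM in the first and 56.9 and 89.3 CPM in the second litter. Most of it was Krt18 and Krt8, at 48.6 and 29.6 CPM on average in wild type and 36.4 and 14.9 in the deletion. Krt8 is also in the epicardial list, so this sum does not measure foregut epithelium alone. Of 20 epicardium and mesothelium markers, edgeR called 4 lower and 0 higher in the second litter, and their sum was 851 to 1862 CPM in the first and 992 to 1304 CPM in the second. Of 14 endothelium and endocardium markers it called 4 lower and 2 higher, with sums of 982 to 1180 CPM in the first and 994 to 1207 CPM in the second. Of all genes, edgeR called 9.84% between litters. The part of other cell types in the litter differences of Perp and Dsg2 was not tested.

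Across the 9 libraries, the plaque genes Jup and Pkp2 were higher, and Dsc3 was lower, in libraries with more sarcomere transcripts. The mean log2 CPM of 24 sarcomere genes served as the measure of heart muscle transcripts, and 10 relations were computed. Between genotypes 21 of these 24 genes were below 0, with a median of -0.18 on the log2 scale and 0 called by edgeR or DESeq2. Genotype means were not subtracted, and the part of genotype in these relations was not tested. For Jup, Pearson's r was 0.83 (exact permutation p 0.00442, adjusted 0.0221) and Spearman's rho 0.88 (exact permutation p 0.00308, adjusted 0.0304). For Pkp2, r was 0.82 (exact permutation p 0.00738, adjusted 0.0246) and rho 0.73 (exact permutation p 0.0311, adjusted 0.104). For Dsc3, r was -0.85 (exact permutation p 0.00347, adjusted 0.0221) and rho -0.85 (exact permutation p 0.00607, adjusted 0.0304). Dsc3 was highest, 14.8 CPM, in the library with the lowest sarcomere mean and lowest, 4.00 CPM, in that with the highest.

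Those end points were wild types 1 and 2, the libraries farthest from the median sarcomere level. Without them, r over 7 libraries was 0.62 for Jup (exact permutation p 0.130), 0.63 for Pkp2 (exact permutation p 0.126) and -0.60 for Dsc3 (exact permutation p 0.144), with the same signs. No p was under 0.05 without those libraries, and the signs were kept. Leaving out both ends narrows the range and leaves fewer libraries, so this cannot tell whether the calls rest on wild types 1 and 2. Dsc2 gave r of -0.75 (exact permutation p 0.0194, adjusted 0.0486) but rho of -0.43, and r of -0.23 without the same libraries. Dsp at r 0.59 (exact permutation p 0.104) and Perp at 0.41 (exact permutation p 0.271) did not pass, and without the same 2 libraries r was 0.60 for Dsp and 0.67 for Perp (exact permutation p 0.150 and 0.0988). Without deletion 2, r over 8 libraries was 0.83 for Jup, 0.83 for Pkp2 and -0.84 for Dsc3 (exact permutation p 0.00747, 0.0120 and 0.00732). For Dsc2 it was -0.81 (exact permutation p 0.0302). With litter means subtracted, r was 0.85 for Jup, 0.85 for Pkp2, -0.86 for Dsc3, -0.79 for Dsc2, 0.78 for Dsp and 0.59 for Perp. A single litter, of 4 or 5 libraries, is too small for an r of its own. Dsg2, at r -0.12, did not pass, although it is a partner of these proteins in the heart desmosome. The ratio of Pkp2 to Pkp4 per exon length was 1.78 in wild type 1 and 2.34 to 3.90 in the other 8 libraries.

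**Figure D4:**
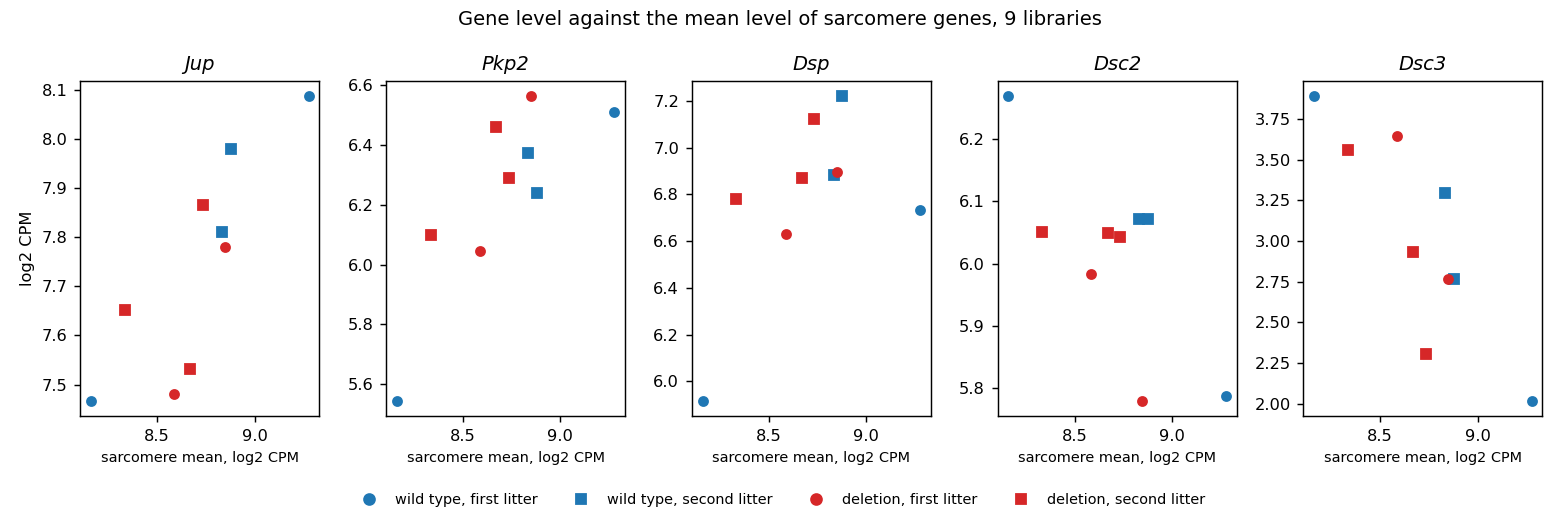
Log2 CPM of Jup, Pkp2, Dsp, Dsc2 and Dsc3 (y axes) against the mean log2 CPM of 24 sarcomere genes (x axes) in 9 libraries, coloured by genotype and shaped by litter. Jup and Pkp2 go up and Dsc3 goes down along the axis, with wild type 1 at 8.16 and wild type 2 at 9.28 as the end points.

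The genes with the most similar profiles were named for Perp, Dsp and Pkp2 as the 5 with the highest Pearson r of log2 CPM over the 9 libraries, after subtraction of genotype means, among 11306 genes with a mean of at least 5 CPM. For Dsp they were Arhgef28 (0.99), Mtor (0.98), Alpk2 (0.98), Lrrc47 (0.97) and Ttn (0.97), the last encoding the giant sarcomere protein titin. For Pkp2 they were Atp2a2 (0.99), the calcium pump of the sarcoplasmic reticulum, Cyc1 (0.98), Atp5b (0.98), Prep (0.97) and Uqcrc1 (0.96). Cyc1, Atp5b and Uqcrc1 encode parts of the mitochondrial respiratory chain and ATP synthase. For Perp they included Zfp938 (0.99), Arxes1 (0.98), mt-Nd3 (0.98) and Lmbr1 (0.98). The points share libraries, litters and depth, and the highest of so many correlations are high by selection. With litter effects subtracted as well, Ttn (0.99) led for Dsp, and only Ttn and Arhgef28 remained of its 5. Atp2a2 (0.99) led for Pkp2, and only Atp2a2 and Cyc1 remained, without Atp5b and Uqcrc1. The 5 for Perp were all different, led by Osbpl8 (0.98).

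Of the partners that carry desmosomes or work beside them, heart muscle junction genes gave no call between genotypes. Of 25 intercalated disc and adherens junction genes, 11 were below 0 and 14 above, and their median was 0.03 on the log2 scale. EdgeR and DESeq2 called 0 of them, and 0 had an unadjusted edgeR p under 0.05. Ctnnb1, beta-catenin, was at 612 ± 11.9 (SD, n = 4) and 611 ± 37.8 CPM (SD, n = 5). Gja1, the gap junction protein connexin 43, was at 237 ± 37.6 (SD, n = 4) and 293 ± 106 CPM (SD, n = 5), or 0.31 on the log2 scale (SE 0.23). Between litters, 3 of these 25 genes were called higher and 1 lower in the second by edgeR, where 9.84% of all genes were called. Among them was Pdlim3, a Z-disc adaptor, at 1.11 (SE 0.22, edgeR adjusted p 0.0142).

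The plakins Evpl and Ppl, envoplakin and periplakin of the cornified envelope, were low. Evpl was at 6.25, 4.39, 3.60 and 2.08 CPM in wild types 1 to 4 and at 3.68, 1.71, 1.22, 3.28 and 1.33 CPM in deletions 1 to 5. Its groups overlapped, with a log2 fold change of -0.86 (SE 0.43, edgeR adjusted p 0.896). Ppl gave -0.72 (SE 0.43, edgeR adjusted p 0.901), with wild type 1 highest at 11.9 CPM and deletion 5 lowest at 1.99 CPM. The list of desmosomal cadherins and plakins outside the 10 genes had 5 of 10 tested, 3 of them below 0, with 0 called by edgeR or DESeq2.

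The filaments that desmosomes anchor included 2 keratins called between genotypes by DESeq2. Of 13 intermediate filament genes 12 were tested, 9 were below 0, and the median log2 fold change was -0.44. EdgeR called 0, with 6 at an unadjusted p under 0.05, against 5.27% of all genes. The 2 called by DESeq2, against 0.225% of its genes, were Krt8 and Krt19, keratins of simple epithelia. Krt8 had an edgeR log2 fold change of -0.99 (SE 0.15, edgeR adjusted p 0.213) and Krt19 of -0.84 (SE 0.19, edgeR adjusted p 0.679). Des, the desmin filament of muscle, was at 338 ± 79.3 (SD, n = 4) and 264 ± 26.9 CPM (SD, n = 5), or -0.36 on the log2 scale (SE 0.15, edgeR adjusted p 0.896). Of 33 epithelial adhesion and tight junction genes 27 were tested, 19 were below 0, and the median was -0.20. EdgeR called 0 of them, with 6 at an unadjusted p under 0.05, against the same 5.27% of all genes. DESeq2 called 2, against 0.225% of its genes, among them Lamb3, which encodes a laminin chain.

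Krt8 and Krt19 are also in the epicardium and mesothelium list, whose 20 genes were tested with 17 below 0 and a median of -0.55. Its summed level was 1862, 1831, 1104 and 1304 CPM in wild types 1 to 4 and 1339, 851, 1171, 1143 and 992 CPM in deletions 1 to 5. The epicardial sum was highest in wild types 1 and 2, where Perp was 121 and 156 CPM. Deletion 2 had the lowest epicardial sum and the second-highest Perp, 135 CPM. The part of epicardial cells in the Perp values was not tested. Of 22 p53 and p63 family genes and targets other than Perp, 20 were tested, with 10 below 0, 10 above and a median of -0.01. EdgeR and DESeq2 called 0 of them between genotypes, and 3 had an unadjusted edgeR p under 0.05, against 5.27% of all genes. Those were Trp53inp1 at 0.48 (SE 0.15), Pltp at -0.57 (SE 0.19) and Phlda3 at -0.19 (SE 0.09). Between litters, edgeR called 2 of these 20 genes higher and 0 lower in the second, a share close to the 9.84% of all genes. Trp53 itself, which encodes p53, was among them at 0.36 (SE 0.08, edgeR adjusted p 0.0240).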

How the data were processed

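Per the labels' protocols, outflow tract RNA was purified with RNeasy and sequenced from SMART-Seq low-input libraries. The deposited tables give raw counts by gene symbol, as whole numbers. The submitters' processing notes name STAR 2.5.0c, Picard, HTSeq 0.6.0, DESeq2 and mm10. For annotation and strand setting, the sources used here give nothing. Rows naming no gene (20.6% to 23.5% of counts) were left out.

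Groups came from the sample titles. The test was edgeR 4.0.16 under R 4.3.3 (quasi-likelihood, robust, TMM factors, filterByExpr with a minimum count of 10, two-sided, Benjamini-Hochberg over all genes tested, threshold 0.05). SEs are the size of the log2 fold change divided by the square root of F. DESeq2 1.42.0 and limma 3.58.1 (voom with sample weights) were alternatives, beside other scalings, no filter, litter, the replicate block and leaving out each library. Log2 CPM used a prior count of 2, and TPM the merged exon length of GENCODE M21 (46394 symbols matched). The genotype comparison by edgeR and DESeq2, without other factors, was also run on simulated counts with planted differences. The litter, block, interaction and voom fits and the permutations were not.

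The members and lists were chosen with earlier results of these data known. All members were named, with at most 3 genes by p and 3 by level per other list. Single marker genes and Sox9 were chosen after their values were seen. Libraries sharing a replicate number deviated from their group means together, with correlations of 0.242, 0.137, 0.227 and 0.176 (numbers 1 to 4). Such libraries also share a litter, and libraries with different numbers were not compared. The correlations therefore cannot show pairing by number, and the replicate block is an assumption. A few genes that the naming rule selects are not reported here.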

Additional observations from a re-analysis of the deposited data

Results flagged for a closer look

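Of 20 sets of member values checked (10 genes in 2 genotypes), 1 held a library far from the others. Dsc2 in the deletion group was at 54.88 CPM in deletion 2, against 63.2 to 66.3 CPM in the other 4 deletion libraries. Its gap to the nearest library, as a share of the group's range, exceeded Dixon's critical value, which chance alone exceeds in about 1 set in 20. Deletion 2 was also the library rich in neuron and Schwann cell transcripts, and the part of this in its Dsc2 value was not tested. Wild type 2 had nearly the same Dsc2 level, 55.2 CPM, so the value lay within the range of the study.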

How the results depend on the processing

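The number of members called between genotypes was 0 by edgeR and stayed 0 in the alternatives run, except for 1 (Perp) in the second litter alone without deletion 5 and 1 (Perp) with DESeq2 and the replicate block. The latter fit, DESeq2 with litter, DESeq2 without each library and the litter comparison in each genotype alone were chosen after seeing the data. With the replicate block in edgeR the count was 0. Between litters the count of 2 became 1 to 2 when each library was left out, and 0 in wild type alone and 0 in the deletion alone, where fewer libraries were fitted. For members not called between litters the sign of the log2 change turned in some fits. With each library left out it ran from -0.035 to 0.18 for Jup, -0.47 to 0.17 for Dsc3, -0.095 to 0.23 for Pkp2, -0.22 to 0.59 for Pkp3 and -0.065 to 0.062 for Pkp4. Pkp2 was at -0.050 in the deletion alone and Pkp4 at 0.11 in wild type alone. The cause was not tested. Depth limits Pkp1 and Pkp3, at 2 to 33 counts per library.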
